A study of Mus musculus with 32 samples.

Results

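Bcl11b occupied 5686 distal sites in ILC2/b6 cells that overlapped a Runx1 or Runx3 peak there, overlapped no GATA3 peak there, and overlapped no Bcl11b peak in Scid.adh.2c2 cells. They were chosen from the 21677 Bcl11b peaks of ILC2/b6 by 4 conditions on the deposited peak lists: not annotated as a promoter, no Scid.adh.2c2 Bcl11b peak, a Runx1 or Runx3 peak, and no GATA3 peak, where 1 shared base counted as an overlap. Peak overlap chose them, so all counts of overlap with these lists are descriptions and have no test. Among the other distal Bcl11b peaks found only in ILC2/b6, 5785 overlapped a GATA3 peak and 1206 overlapped no partner peak; a further 3922 distal peaks lay at Bcl11b peaks of both lines, and 5078 peaks were annotated as promoters.

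The series compares a mouse line of group 2 innate lymphoid cells (ILC2/b6), grown with the cytokines IL-33, IL-7 and IL-2 (10 ng/ml), with a pro-T-like mouse line (Scid.adh.2c2), for which the culture notes name none of these cytokines. ChIP-seq gave 1 peak list per factor and line, each from 2 libraries filtered together for reproducibility, so peak values of single libraries cannot be compared. Titles of the input libraries carry FA or DSG in both lines, and titles of the ChIP libraries carry neither. Whether the factors differed in this preparation, and its part in which peaks overlap, was not tested. RNA-seq has 4 groups of 2 libraries: each line was transduced with sgControl-CFP, a control guide carried with the fluorescent protein CFP, or with sgBcl11b-CFP, a guide against Bcl11b. Each line is a single cultured line, and the labels name neither the source of the nuclease nor whether replicates were separate cultures, so p-values cover the spread between these libraries, which may be technical. RNA depth, inferred here from the steps between low expression values, was 34.7 to 43.7 M reads per library. All 12 ILC2 markers had at least 1 RPKM (reads per kilobase of transcript, scaled to library size) in every ILC2/b6 library, and 9 of 11 pro-T markers did in every Scid.adh.2c2 library. The B-cell markers summed to at most 0.349 RPKM in any library, with Pax5 and Ms4a1 at 0 in both lines.

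Bcl11b is a zinc finger transcription factor that is required for T-lineage commitment and for the function of group 2 innate lymphoid cells, and it can recruit repressor complexes. Runx1 and Runx3 are runt-domain factors that bind DNA together with their shared partner Cbfb and can activate or repress. GATA3 is the zinc finger factor on which both T cells and ILC2 depend. By peak overlap, the member sites have Runx and not GATA3 beside Bcl11b in the innate line. The lack of an overlapping GATA3 peak does not show that GATA3 is absent there.

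The peak lists are in mm9 coordinates, and an mm9 genome was not used here, so the letters under the sites are not shown. Some genes with member sites also carried Bcl11b and Runx peaks at their start, and the RefSeq promoters of 3 of them are shown (GRCm38.p6, the 250 bases before the start, 5′ to 3′ on the gene's strand). They were 3 of the 8 genes that had both peaks, out of the 31 genes with the largest changes or most sites. Each of the 3 had 1 promoter entry. Capitals mark the core Runx motif as TGTGGT or TGCGGT on either strand. Acvr2a lay at chr2:48813859-48814108 (+), Dusp1 at chr17:26508473-26508722 (-) and Nupr1 at chr7:126625471-126625720 (-).
Acvr2a: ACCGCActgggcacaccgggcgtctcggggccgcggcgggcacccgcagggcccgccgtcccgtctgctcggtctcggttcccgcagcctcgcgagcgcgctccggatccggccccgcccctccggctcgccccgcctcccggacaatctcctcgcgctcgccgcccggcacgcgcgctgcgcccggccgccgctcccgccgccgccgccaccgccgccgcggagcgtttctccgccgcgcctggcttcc
Dusp1: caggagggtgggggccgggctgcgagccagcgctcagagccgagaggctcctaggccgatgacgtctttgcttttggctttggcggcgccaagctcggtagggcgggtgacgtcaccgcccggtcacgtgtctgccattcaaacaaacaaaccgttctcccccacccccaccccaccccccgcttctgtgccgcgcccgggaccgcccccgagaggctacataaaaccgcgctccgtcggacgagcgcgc
Nupr1: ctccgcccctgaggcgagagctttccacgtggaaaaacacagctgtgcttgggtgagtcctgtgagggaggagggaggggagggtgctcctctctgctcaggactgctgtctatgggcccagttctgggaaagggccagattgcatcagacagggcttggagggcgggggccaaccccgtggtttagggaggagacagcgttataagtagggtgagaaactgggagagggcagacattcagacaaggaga
Acvr2a held 1 match, at the far end of the window, and the other two held none. Of all 32851 RefSeq promoters, 18.6% held at least 1 match in these 250 bases, and of the 3549 promoters of genes nearest to a member site 17.5% did. TGTGGT was found in 11.2% of the member-gene promoters and 14.0% of all promoters, and TGCGGT in 6.88% and 5.10%. These matches are letters in a window and were not tested as binding sites.

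Most member sites carried both Runx factors. Runx1 and Runx3 peaks overlapped 4185 of the 5686 sites (73.6%), a Runx3 peak alone 1247 (21.9%) and a Runx1 peak alone 254 (4.47%). The Runx3 list was longer than the Runx1 list (44938 against 26258 peaks), so the counts of the single factors cannot be compared as occupancy. The Bcl11b peak score, the authors' own height for a peak and used only to rank within the list, had a median of 25.2 (quartiles 18.8 and 37.0). It was 26.9 at sites with both Runx factors, 25.9 with Runx1 alone and 20.3 with Runx3 alone. The rule asked for overlap of intervals 255 bp (Bcl11b), 265 bp (Runx1) and 253 bp (Runx3) wide, which bounds the distance between overlapping peak centres. Within that bound, the median distance from the Bcl11b to the Runx1 centre was 28 bp, with 74.3% within 50 bp. To the Runx3 centre it was 29 bp, with 72.5% within 50 bp.

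**Figure D1:**
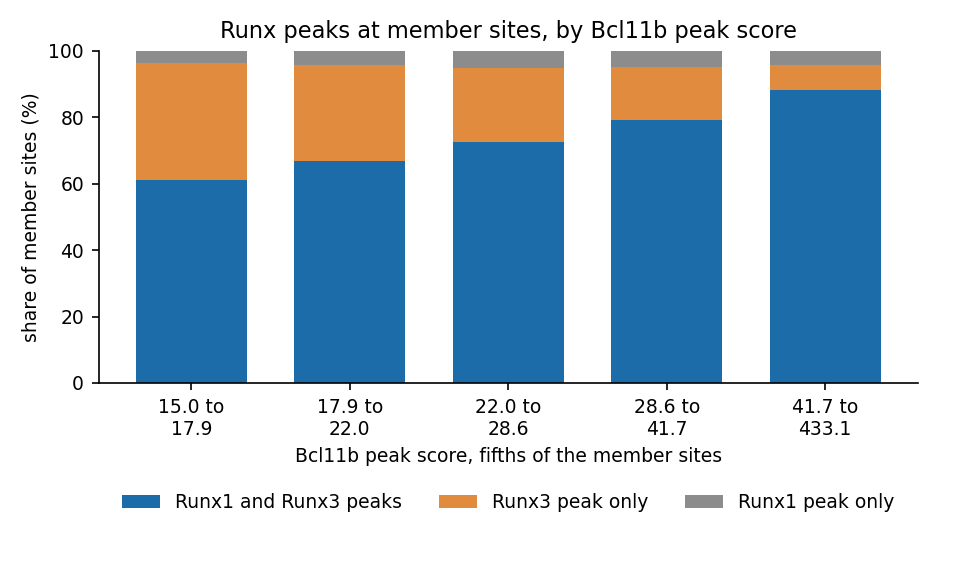
Share of member sites (y axis, percent) with Runx1 and Runx3 peaks, a Runx3 peak only or a Runx1 peak only, in 5 bins of the sites by Bcl11b peak score (x axis, lowest and highest score of each bin). Both factors were present at 61.2% of sites in the lowest bin and 88.3% in the highest.

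Across 5 bins of equal size by Bcl11b score, the share with both Runx factors went from 61.2% through 66.9%, 72.5% and 79.1% to 88.3%, while the share with Runx3 alone went from 35.1% to 7.38%. Scores of different factors at a site share its chromatin, copy number and mappability, and each list has its own threshold. Within their own lists, the Bcl11b peaks of the members ranked at a median percentile of 43.8, the Runx1 peaks at 61.4 and the Runx3 peaks at 66.2. The GATA3-overlapping sites ranked higher in all 3 lists, at 52.6, 71.6 and 76.1.

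The sites lay mainly in introns (3017, 53.1%) and between genes (2158, 38.0%). A further 199 were in exons, 148 in 5′ UTRs, 54 in 3′ UTRs, 75 at transcription ends and 35 in non-coding transcripts. The median distance to the nearest annotated start was 17607.5 bp. Although promoter annotation was barred by the rule, 516 sites (9.07%) lay in a 5′ UTR or within 1 kb of a start, and 270 (4.75%) lay in a CpG island. At the GATA3-overlapping sites these shares were 2.51% and 0.398%, and the median distance was 23451 bp. At distal sites of both lines they were 30.8% and 13.4%, so the members stood between these sets. Sites with 1 Runx factor were nearer to starts: 47.7% of Runx3-only and 46.1% of Runx1-only sites lay within 10 kb, against 31.0% of those with both.

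**Figure D2:**
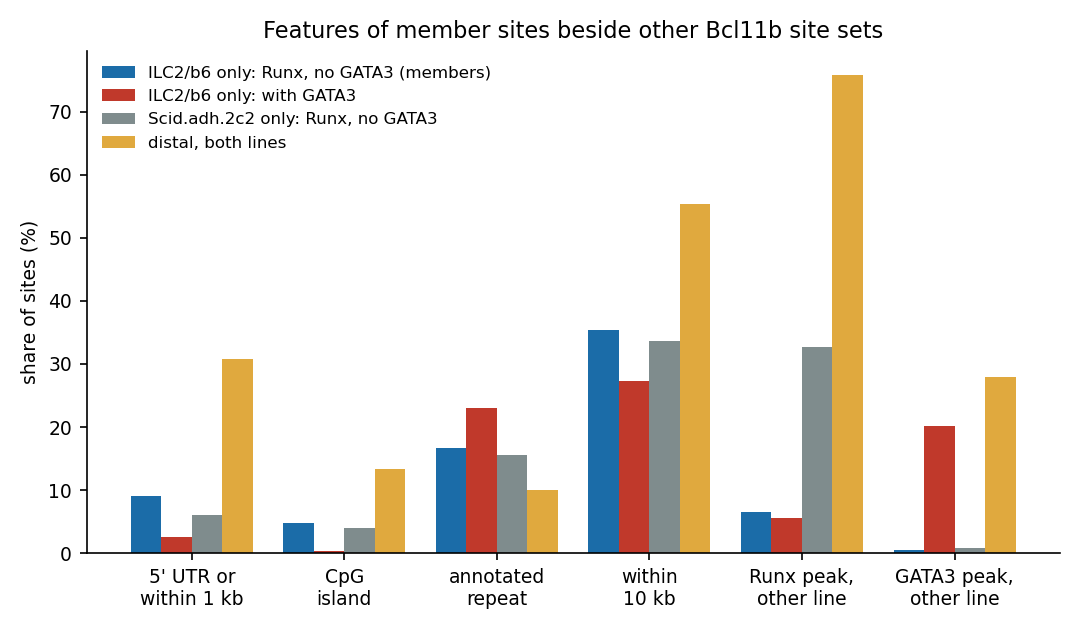
Share of sites (y axis, percent) with each feature (x axis: position, repeat annotation, and peaks of the partners in the other line) for the 5686 member sites and 3 other sets of distal Bcl11b sites. A Runx peak in the other line covered 6.54% of the members, 5.62% of GATA3-overlapping sites and 75.9% of sites bound by Bcl11b in both lines.

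In Scid.adh.2c2 the members were mostly free of the partner peaks as well. Runx1 peaks of that line overlapped 130 sites (2.29%), Runx3 peaks 349 (6.14%), either 372 (6.54%) and GATA3 peaks 25 (0.440%). The share with either Runx peak was similar across the score bins, between 6.16% and 6.77%. The mirror set, 3950 distal Bcl11b sites found only in Scid.adh.2c2 with Runx and without GATA3, had an ILC2/b6 Runx peak at 1288 sites (32.6%). The Runx lists of ILC2/b6 are longer (Runx1 26258 against 13664 peaks, Runx3 44938 against 20523), so these shares are not on the same footing. GATA3 peaks of Scid.adh.2c2 overlapped 20.1% of the GATA3-overlapping set.

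Many sites had a GATA3 peak of ILC2/b6 nearby that did not overlap them, from a list of 33709 peaks. The median gap to the nearest GATA3 peak of ILC2/b6 was 5373.5 bp; 700 sites (12.3%) had one within 500 bp and 3690 (64.9%) within 10 kb. The median gap to the nearest Scid.adh.2c2 Bcl11b peak was 21703.5 bp. At the edges of the rule, the site nearest to Ppp2r5c (chr12:111741680-111741934) touched a GATA3 peak with a gap of 0 bp and was inside, while that nearest to Rasal3 shared 1 bp with one and was outside. The site near Lrig2 had the smallest Runx overlap inside, 2 bp, and the site near Slc25a1 missed a Runx peak by 1 bp. The site near Rpap3 stood 1 bp from a Scid.adh.2c2 Bcl11b peak, and the site near Batf shared 1 bp and was outside.

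The highest scores were led by repeats of ribosomal RNA. The member with the highest score (433.1), in an intron 9577 bp upstream of the Txndc11 start at chr16:11144075-11144329, lay in an LSU-rRNA repeat, with a Runx1 score of 493.6 and a Runx3 score of 1362.9. The next, 284380 bp upstream of Pex2 at chr3:5860501-5860755 (419.9), was of the same kind. Others among the 10 highest in LSU- or SSU-rRNA repeats were nearest to Gm8579 (291.9), Tspan3 (286.4), Axin2 (238.5) and Igf2bp3 (224.4). Only 17 members lay in rRNA repeats, yet 15 of them were among the 100 highest scores. Of these 17 sites, 11 (64.7%) also overlapped a Scid.adh.2c2 Runx peak and 6 (35.3%) a Scid.adh.2c2 GATA3 peak, against 6.54% and 0.440% of all members. No source used here says how reads that map to several places were assigned, and its part in these scores was not tested.

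Outside repeats, the highest scores were at introns nearest to Sfi1 (chr11:3081262-3081516, 283.7), Mir103-2 (275.6), Rasgrf2 (237.8) and Pgs1 (222.4). Sites nearest to Limd1 (218.3), Gpr137b-ps and Gpr137b (208.4 each) and Capn2 (182.5) came next, before the site 50643 bp upstream of Runx3 itself (chr4:134625790-134626044, 179.6). Some pairs of sites had the same 3 scores: 20 of the 4185 sites with both Runx factors fell into 10 pairs with identical Bcl11b, Runx1 and Runx3 scores. Gpr137b and its pseudogene Gpr137b-ps were such a pair (208.4, 225.8 and 497.9), Sp100 and Sp110 another (41.2, 42.3 and 177.3), and Tff1 and Gm8989 were each named for both sites of a pair. Repeats of any kind covered 944 members (16.6%), of which 391 were LTR elements, 193 LINE, 185 SINE and 118 DNA elements. Repeats covered 23.0% of GATA3-overlapping sites and 9.97% of sites of both lines.

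Sites were mostly solitary. Joined at gaps of up to 10000 bp they formed 4828 groups, 4114 of them single sites; 714 groups held 2 or more sites (1572 sites, 27.6%) and 21 held 4 or more. The largest spanned 32911 bp in Nfatc2, a calcium-regulated transcription factor of activated lymphocytes (chr2:168342268-168375178), with 6 sites of which 5 had both Runx factors. Zmiz1, a transcriptional coregulator, had the next, with 5 sites over 29053 bp.

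Each site was assigned to its nearest gene, giving 3636 genes, of which 3582 were in the RNA tables. Of the 3636, 2452 had 1 site, 967 had 2 or 3 and 217 had 4 or more. Most also had other Bcl11b peaks of ILC2/b6: 1646 were nearest to a GATA3-overlapping site too, 1098 had a promoter peak, 1046 were nearest to a distal site of both lines, and 1051 had member sites alone. H2afy3 had the most, 11 sites, followed by Gm17746 with 10, and by Cmip, Nfatc2 and Ywhaz with 9 each. Acvr2a, Frmd4a, Gas7, Maf, Mir6388 and Pde4b had 8 each. For Acvr2a, Maf and Mir6388 no member site lay within 50 kb of the start, so the nearest gene is a label of position and not a known target.

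The genes of Bcl11b and its partners carried member sites themselves. Runx1 had 7, the highest scored (100.1) in an intron at chr16:92823892-92824146, and Runx3 had 5, with scores of 179.6, 125.4 and 76.7 for the top 3. Bcl11b had 2, both intronic (26.7 and 17.0), Gata3 had 2 and Cbfb, the shared subunit of Runx factors, 1. In ILC2/b6 Bcl11b mRNA measured 6.85 and 6.33 RPKM with the control guide against 7.04 and 7.24 RPKM with the Bcl11b guide, and did not pass the test (log2 fold change 0.11 ± 0.06 (SE), adjusted p = 0.278). A guide that shifts the reading frame need not lower the mRNA, so this level does not check the labels. Runx3 was 46.5 and 42.9 RPKM in control and 43.7 and 43.7 RPKM with the guide (adjusted p = 0.694), and Runx1 2.73 and 3.09 against 2.88 and 2.90 RPKM (adjusted p = 0.974). Neither passed the test, nor did Cbfb (adjusted p = 0.596) or Gata3 (adjusted p = 0.309). None of these sites had a Bcl11b peak in Scid.adh.2c2. Runx3 had 2 other distal sites with Bcl11b peaks in both lines, however, and Gata3 and Runx1 had 3 each. A Runx3 member site lay 154 bp from a Scid.adh.2c2 Bcl11b peak. In that line Runx3 rose from 3.07 and 3.28 RPKM to 18.0 and 18.2 RPKM (2.34 ± 0.07, adjusted p = 2.58e-07). Gata3 rose by a log2 fold change of 0.22 (adjusted p = 0.00506), a call lost without guide replicate 2 at 0.19. Runx1 was not called there (-0.05, adjusted p = 0.487).

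Comparing the guides in ILC2/b6 addresses how transcripts near these sites respond to disruption of Bcl11b. RNA was not used to choose the sites. Tests were on log2(RPKM + 0.5) with limma over all genes that reached 1 RPKM in 2 or more of the 4 libraries. A gene was called when its adjusted p was below 0.05. This scale understates the fold changes of low genes. Of 3582 genes nearest to a member site, 2426 were tested, 2359 of them at 1 RPKM or more in all 4 libraries, 25 through the guide libraries alone and 11 through the control libraries alone. Of these 2426 genes, 295 rose and 259 fell with the Bcl11b guide. This is 22.8%, beside 14.5% of all genes tested (8.32% rose and 6.21% fell). Their median log2 fold change was 0.01, beside 0.02 over all genes tested. Of these genes 14 rose and 4 fell by 2-fold or more, 0.742% of those tested beside 0.599% of all genes tested. Without the genes that met the filter through the guide or the control libraries alone, 280 rose and 255 fell. With no filter on low values 35 genes were called, 0.977% of 3582 beside 0.543% of all genes. Without guide replicate 1 the count was 340 genes and without guide replicate 2 it was 301, beside 8.77% and 7.67% of all genes. Median-centred values gave 225 rises and 353 falls, and quantile normalization 234 and 269, so the balance of direction rests on the scaling. In bulk RNA, fewer cells of a type and less RNA per cell cannot be told apart.

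The share called went up with the number of member sites, from 20.4% of 1568 genes with 1 site to 26.7% of 685 with 2 or 3 and 29.5% of 173 with 4 or more. It was 10.2% of the 3080 genes with no ILC2/b6 Bcl11b peak. Genes with member and GATA3-overlapping sites were called at 28.2% of 1173, those with member sites and no GATA3-overlapping site at 17.8% of 1253, and those with GATA3-overlapping sites and no member site at 19.1% of 1054. The 493 tested genes with member sites alone were called at 17.6%. Genes with more sites also had more Bcl11b peaks of other kinds and higher levels (a median of 13.0 RPKM in control libraries with 4 or more sites against 10.4 RPKM with 1), and the parts of these were not tested. In 4 bins of equal size by control level, from low to high, member genes were called at 20.1%, 20.9%, 21.5% and 27.8%, and all other tested genes at 10.8%, 10.5%, 10.7% and 16.4%. By distance, the share was 23.7% with a member site within 5 kb of the start, 22.5% between 5 and 50 kb and 21.6% beyond 50 kb.

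**Figure D3:**
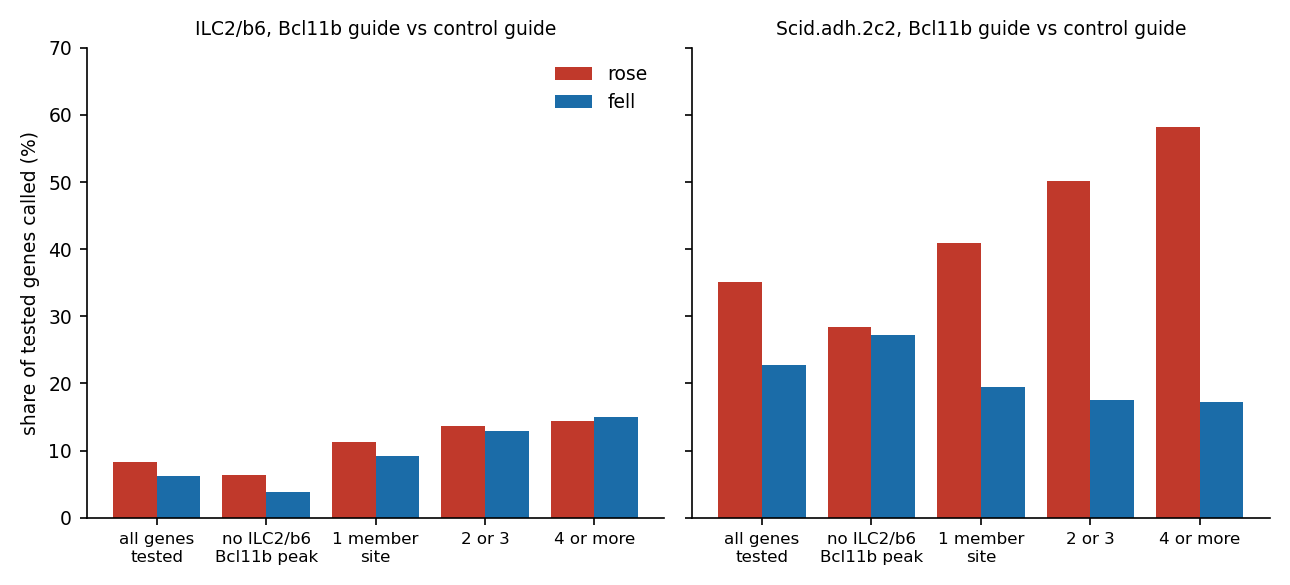
Share of tested genes called as risen or fallen (y axis, percent) with the Bcl11b guide in each line, for all genes tested, genes with no ILC2/b6 Bcl11b peak, and genes with 1, 2 or 3, or 4 or more member sites (x axis). In Scid.adh.2c2 the risen share goes from 41.0% with 1 site to 58.2% with 4 or more as deposited, and from 29.8% to 49.1% with median-centred values.

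Cma1 and Cd244 had the largest rises among the called genes. Cma1, a chymase of mast cell granules, had 1 member site 15165 bp from its start (chr14:56548220-56548474). That site lay 40 bp from a Scid.adh.2c2 Bcl11b peak, and the gene also had 1 GATA3-overlapping site. Cma1 measured 1.93 and 2.50 RPKM with the control guide against 24.1 and 24.3 RPKM with the Bcl11b guide (log2 fold change 3.20 ± 0.09, adjusted p = 9.33e-06). Cd244, the receptor 2B4 of NK cells, with an intronic site 2893 bp from its start, went from 0.40 and 0.387 RPKM to 5.55 and 5.92 RPKM (2.80 ± 0.08, adjusted p = 9.33e-06). In both, each guide library stood above both control libraries, and Cd244 met the filter of 1 RPKM through the guide libraries alone, so its direction was fixed by entering the test. Tpsab1, a tryptase of mast cells, had 6.79 and 7.84 RPKM in control and 18.8 and 19.8 RPKM with the guide (1.35 ± 0.07, adjusted p = 7.8e-05). Pilrb1 and Pilra, paired receptors of myeloid and NK cells, were called at log2 fold changes of 1.92 and 1.64. They went from 0.475 and 0.505 to 3.14 and 3.36 RPKM and from 0.591 and 0.529 to 2.84 and 2.76 RPKM, so both also met the filter through the guide libraries alone. Cma1, Tpsab1, Pilra and Pilrb1 belong to families of similar genes, and the division of reads between relatives is uncertain.

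Among the other large rises, Htra1, a secreted serine protease with an intronic site of score 83.1, rose from 2.32 and 2.19 RPKM to 7.92 and 8.11 RPKM (1.63 ± 0.06, adjusted p = 2.08e-05). Anpep, the aminopeptidase CD13, with 2 sites, rose from 1.52 and 1.33 RPKM to 5.12 and 5.25 RPKM (1.56 ± 0.08). Cysltr2, a receptor for cysteinyl leukotrienes, with 3 intergenic sites 8902 to 38676 bp upstream, rose from 16.4 and 22.2 RPKM to 41.9 and 44.2 RPKM (1.15 ± 0.12, adjusted p = 0.00138). Mob3c rose by 1.22 and Fndc3a, with 5 sites, by 1.16 on the log2 scale. For each of these genes both guide libraries stood above both control libraries, an order seen either way in 59.9% of all genes tested. The stromal markers stood beside these rises in ILC2/b6: Dcn, a matrix proteoglycan, had 5.31 and 5.99 RPKM in control and 12.8 and 10.9 RPKM with the guide, while Col1a1, Col1a2 and Pdgfra stayed below 1 RPKM, and the 4 summed to 5.74 to 6.26 and 11.2 to 13.0 RPKM. The 4 mast markers summed to 20.6 to 20.8 RPKM in control and 20.8 to 21.2 RPKM with the guide, nearly all from Kit, with Cpa3 and Fcer1a below 0.1 RPKM. Mcpt4, the remaining one and a protease of mast cells, had 0.762 and 0.839 RPKM in control and 2.31 and 1.77 RPKM with the guide. The part of other cells in the rises was not tested.

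Falls were smaller. Tff1, a trefoil peptide, was the most abundant of the 10 largest apart from Nupr1, and fell from 158 and 133 RPKM to 76.0 and 67.3 RPKM (-1.01 ± 0.09, adjusted p = 0.000644). Of its 2 sites, 1 was listed on chromosome 5, away from the gene on chromosome 17, with the same scores. Smpdl3a, a phosphodiesterase related to acid sphingomyelinase, with a site 358 bp from its start, fell from 6.64 and 7.28 RPKM to 2.65 and 3.03 RPKM (-1.16 ± 0.08, adjusted p = 0.000273). Prr5l, a partner of an mTOR complex, fell from 1.48 and 1.27 RPKM to 0.301 and 0.367 RPKM (-1.17 ± 0.12, adjusted p = 0.00138), and met the filter through the control libraries alone. Filip1 fell by 1.03, Ptpn5, a tyrosine phosphatase, by 0.93 and Atp8a2, a phospholipid flippase, by 0.85 on the log2 scale. The stress-response factor Nupr1, whose promoter is printed above, fell from 275 and 226 RPKM to 147 and 144 RPKM (-0.78 ± 0.08, adjusted p = 0.00139). Egr1, an immediate early factor, with a site of score 75.8, fell from 27.6 and 30.4 RPKM to 16.8 and 16.5 RPKM (-0.78 ± 0.05). Dusp1, a phosphatase of MAP kinases, whose promoter is also printed above, fell from 9.13 and 9.48 RPKM to 5.20 and 5.28 RPKM (-0.77 ± 0.05). Snord104, a small nucleolar RNA that this kind of library measures poorly, was called at -0.78, but not without control replicate 1 (-0.51) nor in a joint fit of both lines (adjusted p = 0.0585).

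**Figure D4:**
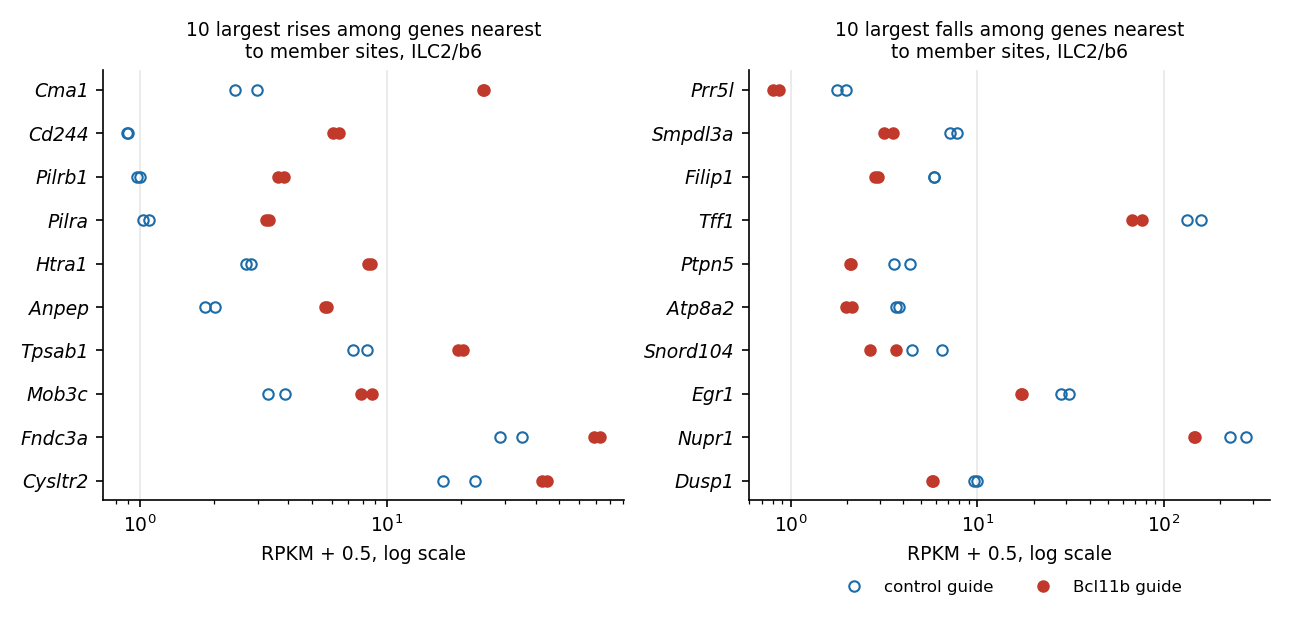
RPKM + 0.5 on a log axis (x axis) in each ILC2/b6 library, open circles for the control guide and filled circles for the Bcl11b guide, for the 10 largest rises (left) and the 10 largest falls (right) among called genes nearest to a member site. The libraries of the 2 groups are apart for all 20 genes, from 1.93 and 2.50 against 24.1 and 24.3 RPKM for Cma1 to 3.95 and 3.17 RPKM for the nearest pair of Snord104. These genes were chosen for their large called changes. The groups are apart in 59.9% of all genes tested and 68.8% of those nearest to a member site.

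Among the ILC2 identity and effector genes, the cytokines Il5 and Il13 fell and Alox5 rose. This list had member sites at 21 of its 41 genes (52 sites), of which 20 were tested, 4 rose and 4 fell (median log2 fold change -0.03). Il5, the eosinophil growth cytokine, had 2671 and 2869 RPKM in control and 1881 and 1874 RPKM with the guide (-0.56 ± 0.05, adjusted p = 0.000518). Il13, the cytokine of mucus production and airway responses, had 4472 and 4406 RPKM and 3025 and 3151 RPKM (-0.52 ± 0.04, adjusted p = 0.000487). Neither kept its call when both lines were fitted together (adjusted p = 0.0591 and 0.223). Alox5, the 5-lipoxygenase of leukotriene synthesis, with 3 intronic sites of scores 59.4, 56.7 and 49.2, rose from 10.5 and 10.4 RPKM to 21.5 and 22.4 RPKM (1.03 ± 0.05, adjusted p = 3.41e-05). Nmur1, the neuromedin U receptor of ILC2, with 3 sites, fell from 57.3 and 58.2 RPKM to 41.5 and 42.5 RPKM (-0.46 ± 0.04). Among the 15 tested genes of the list without a member site, 1 rose and 3 fell.

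Of the transcription factors, the list of GATA, ETS and other lymphoid factors had 22 of 41 genes with 60 member sites; of 19 tested, 4 rose and 4 fell (median 0.06). Maf, a factor of type 2 cytokine programmes, with 8 sites all over 50 kb from its start, fell from 44.4 and 43.9 RPKM to 33.4 and 34.5 RPKM (-0.38 ± 0.04, adjusted p = 0.00131). Irf4, with 4 sites, fell by 0.39 and Prdm1, the repressor Blimp1, by 0.25, the latter call lost without guide replicate 2 (-0.23). Id3, an inhibitor of E proteins, rose by 0.66 from 5.70 and 5.88 RPKM to 9.80 and 9.10 RPKM. On the list of Bcl11b, Runx and their cofactors, with 26 sites at 12 genes, all 12 were tested, none rose and 1 fell, namely Runx2 (-0.33 ± 0.06, adjusted p = 0.012). Without a member site, 2 rose and 4 fell of 14 tested lymphoid factors, and 1 rose and 1 fell of 15 tested cofactor genes.

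The shares of all tested genes to read these list counts against are 8.32% risen and 6.21% fallen. Of 9 tested T-cell receptor and T-lineage genes with a member site, 1 rose and 5 fell (median -0.15). The 2 tested genes of this list without a member site fell (median -0.38). Ubash3a, a phosphatase that restrains antigen receptor signals, fell from 6.96 and 6.71 RPKM to 3.96 and 3.76 RPKM (-0.75 ± 0.06), and the adaptors Grap2, with 5 sites, and Lcp2 fell by 0.52 and 0.30. Hes1, a Notch target, was called at 0.29, but not without either control replicate or guide replicate 1 (0.31, 0.26 and 0.22). Of 8 tested NK and cytotoxic genes, 3 rose and 1 fell: Cd244, the death ligand Tnfsf10 (0.58) and the pore-forming Prf1 (0.39) rose and Gzma fell by 0.29; without Cd244, which met the filter through the guide libraries alone, 2 of 7 rose and 1 fell. Of 6 tested mast and myeloid genes 5 rose and none fell (median 1.49); these were Cma1, Pilrb1, Pilra, Tpsab1 and Csf2rb, named after its values were seen, the shared beta chain of the IL-3, IL-5 and GM-CSF receptors, which had 21.8 and 22.8 RPKM in control and 26.4 and 26.8 RPKM with the guide (log2 fold change 0.25). Without Pilrb1 and Pilra, which met the filter through the guide libraries alone, 3 of 4 rose and the median was 0.80. Among mast and myeloid genes without a member site, 5 of 8 tested rose and 1 fell. Among NK and cytotoxic genes without one, 3 of 6 tested rose and none fell.

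Of 19 tested cytokine signal regulators with a member site, 4 rose and 6 fell, and of 12 tested without one, 3 rose and 1 fell. Il18rap, a subunit of the IL-18 receptor with 4 sites, rose from 29.3 and 33.8 RPKM to 43.2 and 44.7 RPKM (0.48 ± 0.07, adjusted p = 0.00438), and Traf1, an adaptor of TNF receptors, rose by 0.46. Pim1, a kinase induced by STAT factors, with 4 sites, fell by 0.34, and Il21r was called at -0.55, but not without control replicate 1 (-0.52) or guide replicate 2 (-0.39). Of 16 tested trafficking and adhesion genes with a member site, 2 rose and 3 fell, and of 10 tested without one, 2 rose and 3 fell. Rgs1, which dampens chemokine receptor signals, fell from 331 and 355 RPKM to 228 and 223 RPKM (-0.60 ± 0.04, adjusted p = 0.000281), and the integrin gene Itgb3 fell by 0.39. Itga1 (-0.39) was lost without control replicate 1 (-0.38) or guide replicate 2 (-0.35). Cxcr4 (0.33) was lost when any of the 4 libraries was left out (0.27 to 0.38) and under both other scalings.

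Of 10 tested checkpoint and costimulation genes with a member site, 3 rose and 1 fell, and of 5 tested without one, 2 rose and none fell. Icos, a costimulatory receptor, rose from 40.1 and 46.0 RPKM to 59.0 and 58.4 RPKM (0.45 ± 0.06, adjusted p = 0.00474), and Ctla4 fell by 0.33. The calls of Nt5e (0.43) and Pdcd1lg2 (0.35) were lost without control replicate 1 (0.40 and 0.28) or guide replicate 2 (0.46 and 0.30), and that of Nt5e also without guide replicate 1 (0.41). Of 12 tested immediate early genes, 3 rose and 3 fell. Ier3 rose from 43.2 and 44.6 RPKM to 65.8 and 64.2 RPKM (0.56 ± 0.04), while Egr1, Dusp1 and Dusp2 (-0.57) fell, the last lost without control replicate 1 (-0.48) or guide replicate 2 (-0.39). Of the 6 tested immediate early genes without a member site, 5 fell.

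Among the genes with the most sites, Pde4b, a phosphodiesterase that degrades cyclic AMP, fell from 15.5 and 15.8 RPKM to 9.55 and 8.92 RPKM (-0.73 ± 0.05, adjusted p = 0.000285). Gas7 rose from 11.6 and 11.8 RPKM to 15.9 and 15.8 RPKM (0.42 ± 0.04), and Acvr2a, an activin receptor, from 3.52 and 3.99 RPKM to 5.12 and 5.54 RPKM (0.46 ± 0.08, adjusted p = 0.0105). Cmip (31.4 and 31.0 against 30.4 and 30.9 RPKM), Ywhaz and Frmd4a were not called, and Nfatc2 was called with median-centred values only (-0.17, adjusted p = 0.04; -0.14 as deposited). H2afy3 was under 0.2 RPKM in every ILC2/b6 library, and Gm17746 and Mir6388 were listed at 0, so these 3 genes could not be tested.

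In Scid.adh.2c2, which had no Bcl11b peak at these sites, genes nearest to them were also called often. Such genes could have other Bcl11b peaks there: 1046 of the 3636 were also nearest to a distal site of both lines. Of 3582 genes, 1951 were tested, 1837 at 1 RPKM or more in all 4 libraries, 74 through the guide libraries alone and 13 through the control libraries alone. Of the 1951, 866 rose and 367 fell, 63.2% in all beside 57.8% of all genes tested (35.1% rose and 22.7% fell), with a median log2 fold change of 0.13 beside 0.05. The libraries of the 2 guides in this line differ by 0.13 in their median log2 value. Median-centred values gave 646 rises and 634 falls, and quantile normalization 650 and 631, while over all genes tested median-centring gave 24.1% risen and 38.5% fallen. As deposited, the risen share went from 41.0% with 1 site to 50.1% with 2 or 3 and 58.2% with 4 or more; median-centred, it went from 29.8% to 38.0% and 49.1%. Of the 110 tested genes with 4 or more sites, 12 passed the filter through the guide libraries alone. Genes with no ILC2/b6 Bcl11b peak had 28.4% risen and 27.2% fallen as deposited. The 397 tested genes whose ILC2/b6 Bcl11b peaks were all member sites were called at 55.7%. Genes with a member site that carried a Scid.adh.2c2 Runx peak were called at 65.6% of 227, and the remaining member genes at 62.9% of 1724.

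The same lists in Scid.adh.2c2 are read against 35.1% of all tested genes risen and 22.7% fallen as deposited, and 24.1% and 38.5% median-centred. As deposited, of the tested genes with a member site, 15 rose and 1 fell of 17 GATA, ETS and other lymphoid factors (median log2 fold change 0.74), 8 and 2 of 12 ILC2 identity and effector genes (0.69), and 9 and 3 of 13 cytokine signal regulators (0.75). Of 9 trafficking and adhesion genes 7 rose and 2 fell (1.63), and of 7 NK and cytotoxic genes 5 rose and 1 fell (1.90). Of 9 T-cell receptor and T-lineage genes 4 rose and 3 fell (-0.14), and of 11 Bcl11b, Runx and cofactor genes 5 rose and 1 fell (0.11). Median-centred, the counts risen and fallen were 13 and 1 for the lymphoid factors, 7 and 3 for the ILC2 genes, 9 and 3 for the cytokine regulators, 7 and 2 for trafficking, 4 and 1 for NK genes, 3 and 5 for T-lineage genes and 4 and 4 for the cofactors. Some of these genes met the filter through the guide libraries alone, which fixes their direction: 4 lymphoid factors, 3 ILC2 genes, 3 trafficking genes, 1 cytokine regulator and 1 NK gene. Without them, as deposited, 11 rose and 1 fell of 13 lymphoid factors, 5 and 2 of 9 ILC2 genes, 8 and 3 of 12 cytokine regulators, 4 and 2 of 6 trafficking genes and 4 and 1 of 6 NK genes. List genes without a member site were called there as well, with 10 risen and 5 fallen of 15 lymphoid factors and 11 risen of 11 NK and cytotoxic genes. Prf1, the pore-forming protein of cytotoxic granules, was the NK gene tested through the guide libraries alone, at 0.089 and 0.014 RPKM in control and 2.73 and 2.50 RPKM with the guide. In Scid.adh.2c2 the 4 mast markers summed to 21.4 to 23.5 RPKM in control and 62.6 to 62.8 RPKM with the guide, nearly all from Cpa3, and the 4 myeloid markers to 1.70 to 1.99 and 3.43 to 3.44 RPKM, nearly all from Itgam (1.94 and 1.67, then 3.41 and 3.41 RPKM) with Lyz2, Csf1r and Cd14 below 0.1 RPKM. Their part in these rises was not tested.

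The contrast of guide effects, ILC2/b6 minus Scid.adh.2c2, was tested for 1850 of these genes. It was positive for 303 and negative for 715, 55.0% in all beside 45.8% of all genes tested (17.8% positive and 28% negative). With median-centred values the split was 501 and 566, and with quantile normalization 487 and 555. The share called was 74.8% of the 107 genes with 4 or more sites and 43.2% of the 354 with member sites alone. The largest negative differences were in Il2rb, the shared receptor subunit for IL-2 and IL-15, and in Ly6c1, Gvin1, Ly6a and Gm8989, genes whose paralogs leave the division of reads uncertain. Il2rb, with an intronic site of score 107.1 at chr15:78324067-78324321, had 156, 149, 149 and 150 RPKM in the ILC2/b6 libraries (adjusted p = 0.573), and in Scid.adh.2c2 went from 1.83 and 1.54 RPKM to 126 and 126 RPKM (difference -5.89 ± 0.08, adjusted p = 1.26e-10). Ly6a was at 1952 to 2102 RPKM in every ILC2/b6 library, and in Scid.adh.2c2 it rose from 5.13 and 3.37 RPKM to 172 and 172 RPKM. All 5 were called as higher with the guide in Scid.adh.2c2, Ly6c1 and Gm8989 after meeting the filter there through the guide libraries alone, and none was called in ILC2/b6 (adjusted p from 0.0828 to 0.791).

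The largest positive differences were in Deptor, an mTOR inhibitor, Tnfrsf8 (CD30), Lef1, a partner of beta-catenin in early T cells, Gpr25 and Ptgfrn. Ptgfrn had 0.644 and 0.749 RPKM in ILC2/b6 control and 1.05 and 1.02 RPKM with the guide. It met the filter in ILC2/b6 through the guide libraries alone, which fixes its direction in that line. All 5 fell in Scid.adh.2c2 with the Bcl11b guide. Tnfrsf8, with 3 sites of scores 102.8, 90.1 and 41.9, fell there from 23.5 and 25.8 RPKM to 4.82 and 5.00 RPKM (-2.21 ± 0.07) and had 217 to 248 RPKM in ILC2/b6 (difference 2.11 ± 0.08, adjusted p = 2.84e-08). Deptor rose in ILC2/b6 (0.61, adjusted p = 0.0055) and fell in Scid.adh.2c2 (-1.52, adjusted p = 3.56e-06). Several ILC2/b6 falls were rises in the other line: Egr1 rose there by 2.42, Il13 by 2.18, Prdm1 by 1.71, Itgb3 by 1.63 and Irf4 by 1.02 on the log2 scale, and each difference between lines was called. Egr1, Prdm1 and Irf4 met the filter in Scid.adh.2c2 through the guide libraries alone. Of 246 member genes called in both lines, 112 rose in both, 38 fell in both, 73 fell in ILC2/b6 and rose in Scid.adh.2c2, and 23 did the reverse; over all genes the counts were 366, 131, 202 and 87 of 786.

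**Figure D5:**
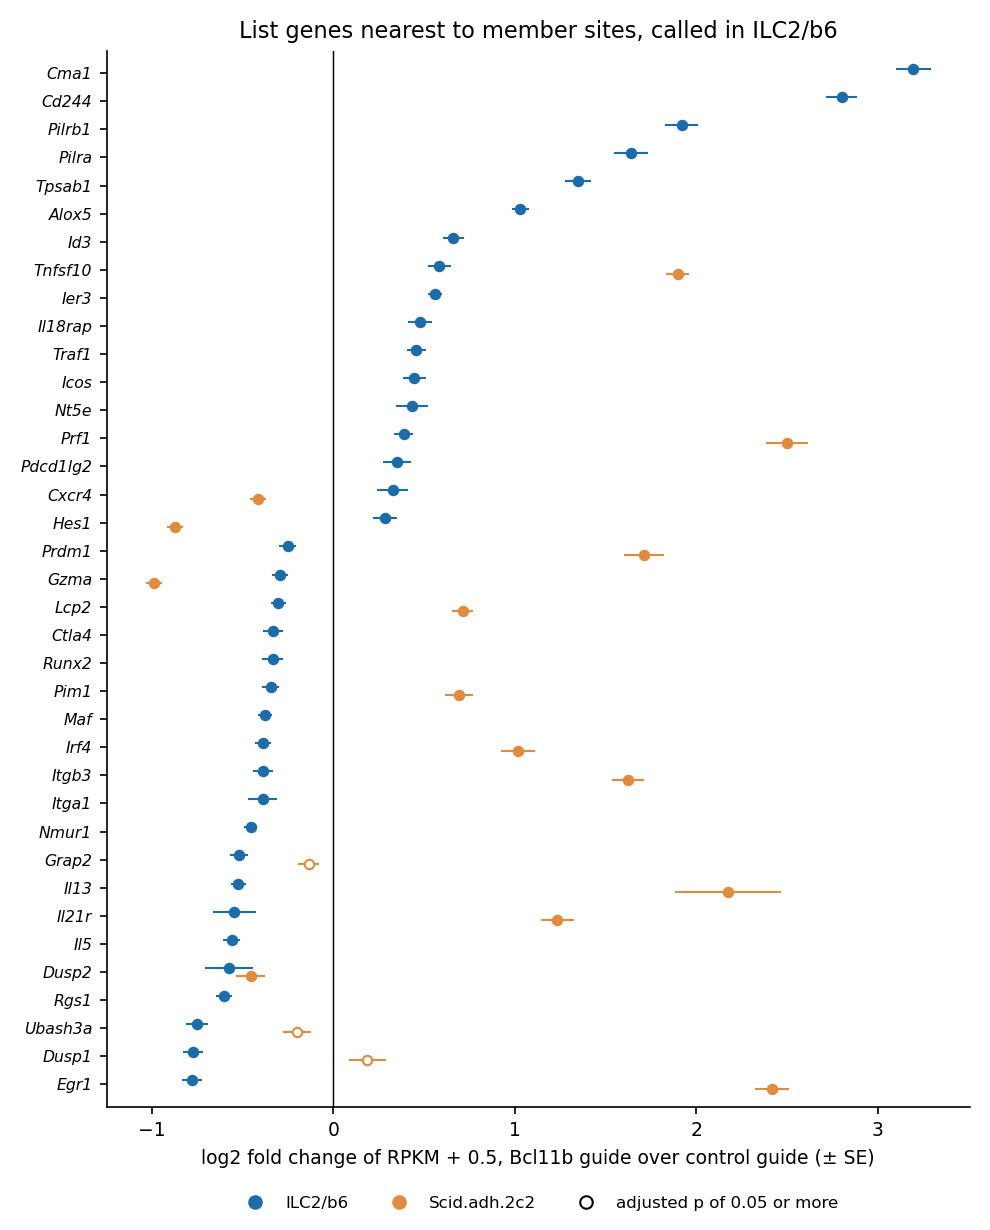
Log2 fold change of RPKM + 0.5 (x axis, ± SE, 2 libraries a group) with the Bcl11b guide for list genes nearest to a member site that were called in ILC2/b6, blue for ILC2/b6 and orange for Scid.adh.2c2, open where the adjusted p was 0.05 or more; genes not tested in Scid.adh.2c2 have no orange point. Prf1 rises in both lines (0.39 and 2.50), while Egr1 falls in ILC2/b6 (-0.78) and rises in Scid.adh.2c2 (2.42). Both met the filter in Scid.adh.2c2 through the guide libraries alone, which fixes their direction in that line.

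Levels in the control libraries set the lines apart. The tables of the lines were normalized separately, so the levels are set side by side as a description. Of the 3582 genes, 594 (16.6%) had at least 1 RPKM in both ILC2/b6 control libraries and less in both Scid.adh.2c2 control libraries, and 73 (2.04%) the reverse, beside 5.68% and 3.44% of all 24475 genes. With 4 or more member sites, 75 of 215 genes (34.9%) were at that level in ILC2/b6 alone and 1 in Scid.adh.2c2 alone. Genes with no ILC2/b6 Bcl11b peak had shares of 2.57% and 3.67%. Around the mirror set, the Scid.adh.2c2-only sites with Runx and without GATA3, the order turned over, with 5.17% in ILC2/b6 alone and 10.5% in Scid.adh.2c2 alone. Genes nearest to GATA3-overlapping sites and to no member site had 10.1% and 3.34%. Those nearest to member sites and to no GATA3-overlapping site had 12.2% and 2.34%, and those nearest to both kinds 21.9% and 1.67%.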

How the data were processed

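Peak lists were deposited by the authors, 1 per factor and line, from 2 ChIP libraries together filtered for reproducibility (IDR) and annotated with HOMER on mm9, per the file headers. The deposited peak score is at least 15, and no source used here gives its scaling. The fraction that HOMER gives per peak, its focus ratio, is deposited too and is not reported. Intervals have a constant width in each list (255 bp for ILC2/b6 Bcl11b), and input libraries were not analysed here. RNA values are RPKM deposited by the authors, 24475 genes per line. The submitters' processing notes name Bowtie 1.1.1, Trimmomatic, STAR 2.4.0 and RSEM 1.2.25, with roles not given. The 2 RNA tables were normalized separately, and 1526 genes have different transcript models between them.

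Members and gene lists were chosen with earlier results of these data known. Overlaps were computed with Python 3.11.15 and pandas 2.3.3, and each site took the gene the deposited annotation names. Values were tested as log2(RPKM + 0.5) with limma 3.58.1 in R 4.3.3, with Benjamini-Hochberg adjustment over all genes with at least 1 RPKM in 2 of 4 libraries; the script was tested on simulated data. The difference between lines was a contrast over 8 libraries. Named sites were the 10 highest scores and those at the edges of the rule. Named genes were the 10 with most sites (11 with ties), the 10 largest called rises and falls in ILC2/b6, the 5 largest called differences between lines in each direction, up to 4 called genes per list, and Bcl11b, Runx1, Runx3, Cbfb and Gata3. Alternatives were other overlaps and scores, pseudocounts, no filter, other scalings, a replicate block, a joint fit and leaving out each library.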

Additional observations from a re-analysis of the deposited data

Results flagged for a closer look

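The effect of the Bcl11b guide differed between ILC2/b6 and Scid.adh.2c2 by the test of the difference itself (limma contrast, ILC2/b6 minus Scid.adh.2c2) for 1018 genes nearest to a member site. The largest positive log2 differences among them were 2.13 for Deptor, 2.11 for Tnfrsf8, 2.10 for Lef1, 1.81 for Gpr25 and 1.70 for Ptgfrn. The largest negative ones were -5.89 for Il2rb, -5.58 for Ly6c1, -5.43 for Gvin1, -5.19 for Ly6a and -5.08 for Gm8989. Ptgfrn met the filter in ILC2/b6 through the guide libraries alone, as Ly6c1 and Gm8989 did in Scid.adh.2c2.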

How the results depend on the processing

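The site count of 5686 became 1970 when Bcl11b and Runx scores of at least 30 were required, and lay between 4185 and 8359 under the other planned rules. Called genes in ILC2/b6 (554) became 35 with no filter on low values and 87 for genes with member sites alone, and leaving out 1 library gave 301 to 665. In Scid.adh.2c2 (1233) they became 221 for genes with member sites alone, and 868 to 1409 without 1 library. For the difference between lines (1018) these values were 153 and 860 to 1088. With the replicate number as a block the counts were 740, 1232 and 1005; deviations of same-numbered libraries correlated at 0.106 in ILC2/b6 and 0.0373 in Scid.adh.2c2 over 2 pairs. Neither the labels nor these 2 pairs show whether the numbers pair the libraries, so the block was not used for the counts in the text. Chosen after seeing the data, leaving out sites in repeats gave 4742 sites and 499, 1091 and 903 called genes, and leaving out 5′ UTR sites and sites within 1 kb of a start gave 5170 sites and 506, 1102 and 917. Over these alternatives, no direction was reversed in values of named genes that were called in the main setting or the alternative. Changes of sign where neither setting gave a call were not counted as reversals. Of the values of named genes, 1699 kept their side of the threshold, 109 lost a call and 34 gained one. With no filter, Il5 and Il13 were among the calls lost in ILC2/b6. With 2 libraries a group, leaving out 1 leaves a lone library assumed to vary like the other group. Among tested genes with member sites alone, 17.6% of 493 were called in ILC2/b6, beside 14.5% of all genes tested. In Scid.adh.2c2 it was 55.7% of 397, beside 57.8%, and for the difference between lines 43.2% of 354, beside 45.8%. The cause of the shifts under these alternatives was not tested.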
